A study of Arabidopsis thaliana with 59 samples.

Results

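The transcripts of 10 genes that set the number and spacing of stomata were followed in rosette leaves of Arabidopsis thaliana. They were taken by name from the 20728 loci of the deposited table, and all 10 were measured. They are ER (ERECTA, AT2G26330), ERL1 (AT5G62230), ERL2 (AT5G07180), TMM (AT1G80080), SDD1 (AT1G04110), EPF1 (AT2G20875), EPF2 (AT1G34245), EPFL9 (also called STOMAGEN, AT4G12970), SPCH (AT5G53210) and MUTE (AT3G06120). The study compared 10 spring annual accessions, Bur-0, CIBC-17, Col, HR-5, KNOX-18, Ler, NFA-10, SQ-8, Ts-1 and Ws-2, each with well watered (wet) and slowly dried (dry) plants. Wet pots stayed near 90% of the water they could hold above dry weight, and dry pots came down to about 50% by day 5, under a 10 h photoperiod with 1 plant in each pot. The labels number 3 biological replicates in each group, except for KNOX-18 dry with 2, which gave 30 wet and 29 dry arrays. The sources used here give neither the age of the plants nor whether an array held RNA of several plants. All values are log2 values as deposited, with array medians between 5.496 and 5.621, and a difference of log2 values is read as a fold change.

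Stomata arise from protodermal cells that divide asymmetrically, and SPCH starts these divisions while MUTE ends them. The receptor kinases ER, ERL1 and ERL2, together with the receptor-like protein TMM, receive secreted peptides: EPF1 and EPF2 restrain stomatal formation, and EPFL9, which comes from the mesophyll, competes with them and promotes it. The subtilase SDD1 is a further negative regulator. ER also acts in organ growth and has been linked to transpiration efficiency. Ler carries the erecta mutation, a missense change in the kinase domain, so its ER transcript level does not check the label.

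The arrays were first set against their labels. Over 500 loci that differ among accessions, 58 of 59 arrays lay nearest to their own accession, and the exception, Ler wet 3, lay nearest to Col. At loci that separate the remaining Ler arrays cleanly from Col by a gap over 1 log2 unit, Ler wet 3 lay on Ler's side at 49 of 59, whereas each other Ler array did so at all such loci or, for Ler dry 3, at 44 of 45. Col wet 3 carries in its labels the stock number of Ws-2, but at 39 of 41 loci that separate Col from Ws-2 it lay on Col's side. Differences between Ler and the other accessions, with wet and dry averaged, are therefore given without Ler wet 3 as well where a gene passed. Mean levels of the morning clock genes CCA1 and LHY moved with the replicate number: they lay between 9.54 and 10.67 in the 20 arrays numbered 1, between 7.48 and 9.02 in the 19 numbered 2, and between 5.11 and 7.77 in the 20 numbered 3, where Ler wet 3 was the lowest. Every replicate number occurs in every group except KNOX-18 dry, so the level of each number enters both waterings of the other accessions. Arrays of the same number still differed between waterings, in either direction. Among those numbered 3, CIBC-17 read 7.45 wet and 6.37 dry, and Ler 5.11 wet and 6.58 dry.

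The first comparison was dry against wet, averaged over the 10 accessions. ER, EPFL9, ERL2 and EPF1 were higher in dry leaves, and none of the 10 genes was lower. Over all loci, 15.5% passed the same test (limma, Benjamini-Hochberg adjusted p under 0.05) as higher and 13.8% as lower, and the median difference was -0.00326. The 4 genes thus include a receptor, its paralogue, and ligands of opposite action. In leaf tissue as a whole, more cells of a type and more transcript per cell cannot be told apart, nor can fewer cells and less transcript per cell.

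ER, the founding receptor kinase of the family, rose by 0.64 ± 0.10 (SE) log2 units, or 1.56-fold (adjusted p = 7.93e-06 in limma), and its mean was higher in dry plants of 10 of 10 accessions. Wet arrays ran from 6.75 through a median of 7.47 to 9.10, and dry arrays from 7.70 through 8.13 to 9.22. In Col, the wet arrays read 7.76, 7.32 and 7.52, and the dry arrays 9.10, 8.35 and 8.22. In Ler, the wet arrays read 7.94, 7.66 and 6.99 and the dry arrays 9.20, 8.31 and 8.13. Both accessions thus had every dry array above every wet array, as did Bur-0, CIBC-17, SQ-8 and Ts-1. Such separation in 6 or more accessions was found at 1.59% of all loci. In Ts-1, the accession with the tightest dry replicates, wet arrays of 7.48, 7.45 and 7.29 stood against dry arrays of 8.15, 8.23 and 8.16. HR-5 overlapped instead, with wet arrays of 9.10, 8.10 and 7.31 and dry arrays of 9.22, 8.02 and 8.18. No accession passed the test for ER on its own, with 3 arrays against 3 and p-values adjusted over all loci. The differences ranged from 0.16 ± 0.36 in KNOX-18 (2 dry arrays) to 1.02 ± 0.33 in Col. Without Ler wet 3, that of Ler was 0.75, and its wet and dry arrays still did not overlap. In the order of accession means, no neighbours differed by more than the larger of their SDs, in wet or in dry plants.

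**Figure D1:**
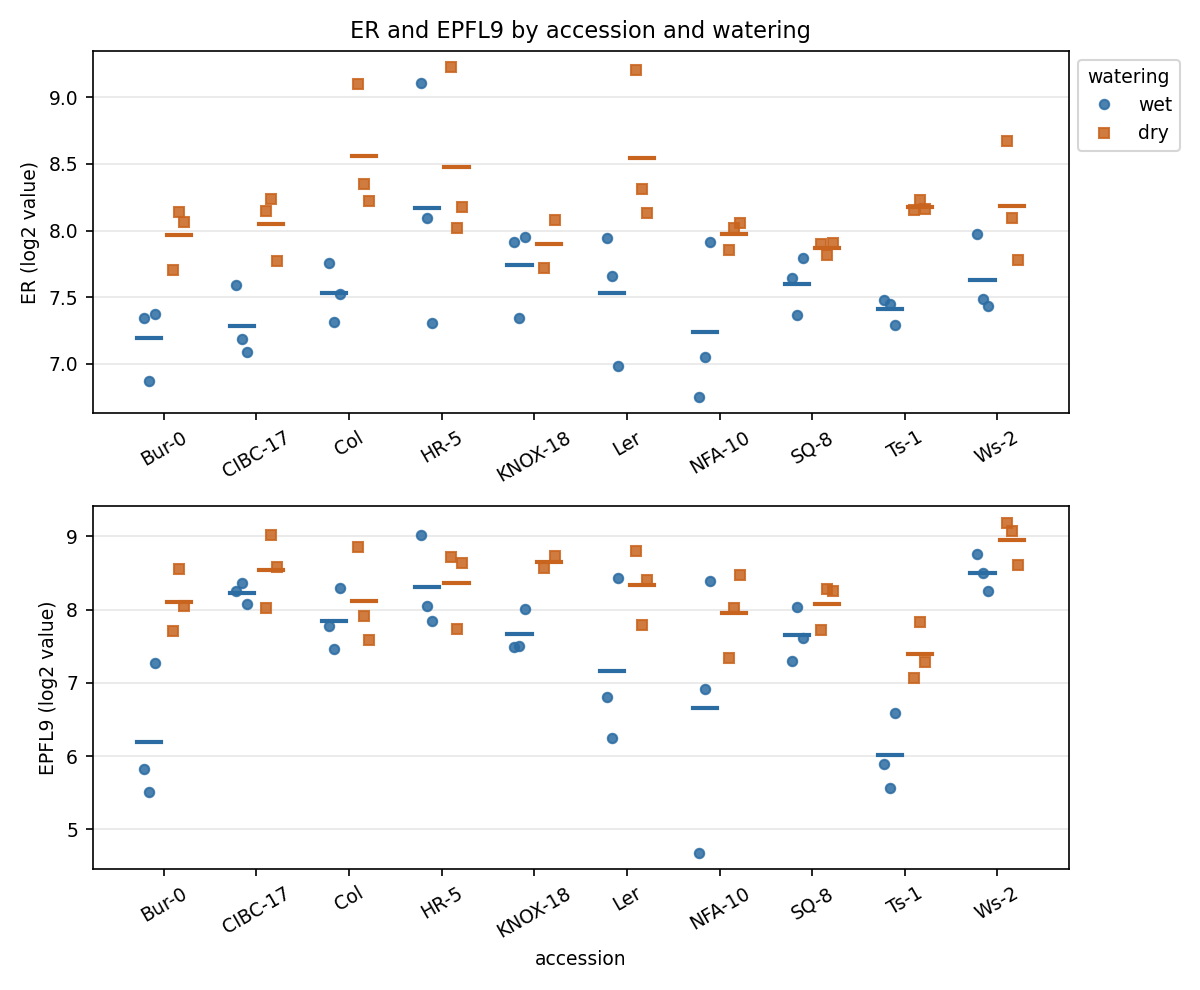
Log2 values of ER (upper panel) and EPFL9 (lower panel) on each array, by accession (x axis), with wet arrays as circles and dry arrays as squares; lines are group means of 3 arrays (2 for KNOX-18 dry). Dry means lie above wet means in all 10 accessions for both genes, and every dry array lies above every wet array in 6 accessions for ER and in 3 for EPFL9.

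EPFL9, the mesophyll ligand that promotes stomata, had the largest mean difference of the 10 genes, 0.83 ± 0.17, or 1.77-fold (limma, adjusted p = 2.57e-04), and was higher in 10 of 10 accessions. Wet arrays ran from 4.68 through a median of 7.69 to 9.02 and dry arrays from 7.07 through 8.28 to 9.18, so low values occurred mainly among wet arrays. In Bur-0 the wet arrays read 5.82, 5.51 and 7.27 and the dry arrays 7.71, 8.55 and 8.05. That difference of 1.91 ± 0.54, or 3.75-fold, was the only one to pass when each gene was tested within each accession (limma, adjusted p = 0.0453, against 1.74% of loci higher in Bur-0). Over all loci, the share called in either direction within an accession ran from 0.0627% in CIBC-17 to 4.95% in SQ-8. In Ts-1 the wet arrays read 5.89, 5.56 and 6.59 and the dry arrays 7.07, 7.83 and 7.29, again without overlap, and the same held for KNOX-18. In HR-5 the groups overlapped, with 9.02, 8.05 and 7.84 in wet and 8.72, 7.73 and 8.64 in dry plants. No overlap in 3 or more accessions was found at 11.1% of all loci. In NFA-10 the wet arrays spread from 4.68 to 8.39, and without the lowest the mean difference over accessions was 0.73 (adjusted p = 1.56e-04). Among arrays numbered 3 alone the difference was 0.39, with an adjusted p of 0.163, against 1.02 and 1.06 among those numbered 1 and 2.

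Among the other receptors, only ERL2 passed. ERL2, a paralogue of ER, rose by 0.17 ± 0.06 (limma, adjusted p = 0.0263) and was higher in 9 of 10 accessions, with wet arrays from 3.78 to 5.23 around a median of 4.09 and dry arrays from 3.86 to 5.56 around 4.23. Its group means lay under 4.455, the 25th percentile over all loci of the highest group mean, used as a limit for dim loci, in 17 of 20 groups, the exceptions being Ler wet, Ler dry and HR-5 dry. In no accession did all dry arrays exceed all wet arrays, and the call was lost without CIBC-17 (0.15, adjusted p = 0.0624) or without Ws-2 (0.15, adjusted p = 0.0702). ERL1 differed by 0.016 (95% interval -0.0386 to 0.0711) and TMM by -0.0044 (-0.153 to 0.144), and neither passed.

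Of the inhibitory ligands, EPF1, which enforces spacing of stomata, rose by 0.17 ± 0.045 (limma, adjusted p = 0.00318) and was higher in 9 of 10 accessions. Wet arrays ran from 4.34 through 4.596 to 5.04 and dry arrays from 4.38 through 4.77 to 5.05, so the groups overlapped widely in level. In Ts-1 they did not: wet arrays read 4.38, 4.49 and 4.43 and dry arrays 4.77, 4.77 and 4.85. KNOX-18 (2 dry arrays) and Ws-2 were also without overlap. Such separation in 3 or more accessions was found at 11.1% of all loci. EPF2, which limits entry into the lineage, differed by -0.054 (95% interval -0.137 to 0.0296). The protease SDD1 differed by 0.026 (-0.145 to 0.197). The transcription factors SPCH and MUTE differed by -0.051 (-0.12 to 0.0191) and -0.0038 (-0.0644 to 0.0569). None of these passed the test. The group means of EPF2, SPCH and MUTE all lay under the same limit of 4.455, so a difference in these genes may be below what the arrays can show.

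**Figure D2:**
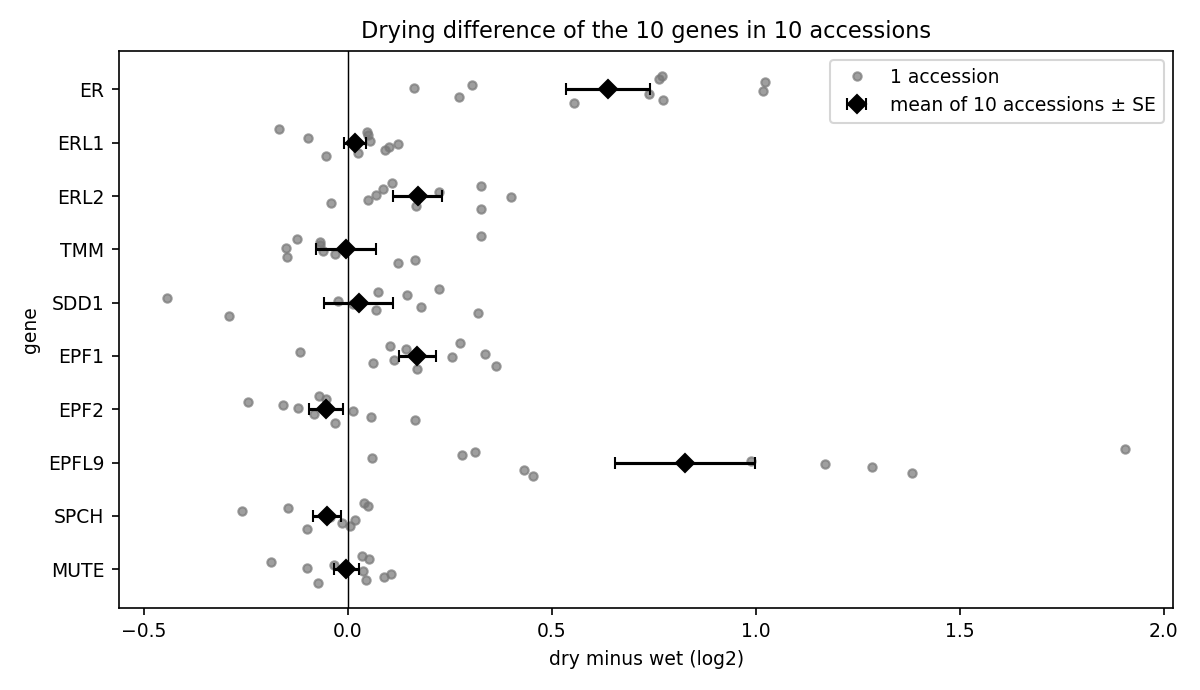
Dry minus wet (x axis, log2) for each of the 10 genes (y axis), with grey points for the 10 accessions and black diamonds for their mean ± SE of the limma fit. ER and EPFL9 lie to the right of 0 in every accession, while SPCH, MUTE, EPF2, TMM, SDD1 and ERL1 have points on both sides.

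An exact two-sided sign-flip test over the 10 accession differences treats each accession as the replicate. Its smallest possible p is 0.00195, which ER and EPFL9 reached. Adjusted over all loci, the sign-flip p was 0.0177 for ER and for EPFL9, 0.025 for ERL2 and 0.0456 for EPF1, and 21.4% of loci passed. Whether drying acted differently among accessions was tested by the interaction in the limma fit. It passed for 0 of 10 genes, with 0 at an unadjusted p under 0.05 and a lowest adjusted p of 0.868, while 0.27% of loci passed. The largest spread of differences was that of EPFL9, 1.85 between HR-5 (0.060 ± 0.54) and Bur-0.

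Markers of other leaf tissues moved with drying as well. Over all loci, 15.5% passed as higher and 13.8% as lower. Of 6 epidermal markers, 4 were lower in dry leaves (ATML1 by -0.46, PDF2 by -0.42, FDH by -0.31 and the wax enzyme gene KCS6 by -0.93). GL2 differed by 0.23 (limma, adjusted p = 0.0621), and neither GL2 nor PDF1 passed. Of 3 measured mesophyll markers, 2 were higher, the carbonic anhydrase gene CA1 by 0.87 ± 0.24 and GAPA of the Calvin cycle by 0.41 ± 0.09. Of 7 mature guard cell markers, 2 were higher, the potassium channel genes KAT1 by 0.39 ± 0.09 and GORK by 0.18 ± 0.06, and none was lower. Of 8 markers of dividing cells, 0 passed in limma and 3 had an unadjusted p under 0.05. Of these markers, CYCB1;1, AN3 and GRF5 lay under the limit for dim loci in all 20 groups, where a difference may not show. Mean mesophyll marker levels spanned 10.1 to 13 in wet and 11.9 to 13.3 in dry arrays, and mean epidermal levels 6.84 to 8.1 and 6.48 to 8.08. Root, flower and clock genes gave 0 calls in limma, with 1, 0 and 1 at an unadjusted p under 0.05. Among them, PYK10, RHD6, AP3, PI, AG and ELF4 lay under the limit for dim loci in all 20 groups. With the replicate number as a block, LHY passed as lower (-0.70, adjusted p = 2.56e-07) and the evening clock genes GI (0.47) and TOC1 (0.33) as higher, and 1 marker each of dividing cells, KNOLLE (-0.22), and of root, SCR (-0.16), passed as lower. Under the block, GL2 (0.23) and the guard cell marker SLAC1 (0.093) also passed as higher. Of all 20728 loci, the block called 3714 higher and 3369 lower, against 3205 and 2864 without it. The part of these shifts in the differences of ER, EPFL9, ERL2 and EPF1 was not tested.

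The second comparison was among accessions, with wet and dry averaged. TMM, ERL2 and EPFL9 differed among the 10 accessions, that is 3 of 10 genes, where 41.3% of all loci differed. TMM spanned 1.06 log2 units from 4.33 in KNOX-18 to 5.38 in Ler (moderated F in limma, adjusted p = 2.54e-05). ERL2 spanned 0.91 from 3.91 in NFA-10 to 4.81 in Ler (adjusted p = 1.11e-04). The lower ends of both lay under the limit for dim loci. EPFL9 spanned 2.02 from 6.71 in Ts-1 to 8.73 in Ws-2 (adjusted p = 5.48e-04). The other 7 genes did not pass, with ranges from 0.189 for ERL1 to 0.739 for ER. Without HR-5 wet 3, however, ER, SDD1 and SPCH passed too, and the count was 6, and with array weights it was 7. The share of all loci under those settings was not counted. Because accessions differ in sequence and the probes are not described in the sources used here, a difference in signal between accessions may include a difference in probe match, which was not tested.

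Ts-1 and Ws-2 marked the ends of EPFL9. Ts-1 minus the mean of the other 9 accessions was -1.255 ± 0.28 (limma, adjusted p = 0.00257, with 3.97% of loci lower in Ts-1), and Ws-2 lay 0.99 ± 0.28 above it (adjusted p = 0.0262, with 3.08% higher in Ws-2). All 3 Ws-2 wet arrays, at 8.76, 8.50 and 8.25, exceeded all 6 Ts-1 arrays. Both accessions were picked as the ends of these same values, so this separation is a description only. Neither their adjusted p-values nor the fits below with arrays left out allow for that choice. ERL2 and ER gave further calls of this kind, which, like those of EPF2 and SPCH, were taken from 10 genes in 10 accessions. P-values were adjusted over loci within each contrast and not over these choices. The moderated F test among accessions in limma did not pass for ER, EPF2 and SPCH (adjusted p = 0.121, 0.13 and 0.0653). ERL2 in NFA-10 was lower by -0.37 ± 0.10 (adjusted p = 0.0169, with 2.3% lower), and ER in HR-5 was higher by 0.52 ± 0.17 (adjusted p = 0.045, with 5.53% higher). EPF2 in HR-5 was higher by 0.205 ± 0.068 (adjusted p = 0.0464, against the same 5.53%), and SPCH in Col by 0.18 ± 0.057 (adjusted p = 0.0322, with 5.03% higher in Col). Both genes lay under the limit for dim loci in all 20 groups. For EPF2, HR-5 wet 1 read 4.67, and the other HR-5 arrays ran from 4.13 to 4.21. When each of the 6 arrays of the accession was left out in turn, the call of EPFL9 in Ts-1 was kept in all 6 cases. The call of EPFL9 in Ws-2 was lost in 4 cases (kept only without wet 3 or dry 3) and that of ERL2 in NFA-10 in 3 (wet 1, wet 2 and dry 2). ER in HR-5 lost its call in 4 cases and was lowest without wet 1 (0.29, adjusted p = 0.376). EPF2 in HR-5 also lost it in 4 cases, with 0.12 without wet 1 (adjusted p = 0.358), and SPCH in Col in 4 cases, with 0.147 without wet 1 (adjusted p = 0.123).

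Ler, which bears the erecta mutation, was then set against the mean of the other 9 accessions. TMM, ERL2 and ERL1 were higher in Ler and no gene was lower, where 7.31% of all loci were higher and 5.12% lower. TMM was higher by 0.91 ± 0.12 (limma, adjusted p = 4.53e-07). No fold is given, since TMM lay under the limit for dim loci in 9 of 20 groups. Its Ler wet arrays read 5.30, 5.10 and 5.85, and its Ler dry arrays 6.30, 4.69 and 5.07. The 53 other arrays ran from 4.06 through a median of 4.40 to 5.26. All 3 Ler wet arrays lay above the highest other wet array, 4.92, as did Ler wet arrays at 0.236% of all loci, while the dry arrays overlapped. The difference was 0.94 ± 0.17 in wet plants (adjusted p = 3.5e-04) and 0.88 ± 0.17 in dry plants (adjusted p = 6.16e-04). The wet value includes Ler wet 3, the highest of the Ler wet arrays, and was not fitted without it. With wet and dry averaged, the difference was 0.81 without Ler wet 3 and 0.68 without Ler dry 1. Against Col alone it was 0.74 ± 0.16 (adjusted p = 0.00144), where 7.6% of loci were higher in Ler, and 0.64 without Ler wet 3 (adjusted p = 0.00672).

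ERL2 was higher in Ler by 0.64 ± 0.098 (limma, adjusted p = 7.15e-06). Among the other accessions its mean passed the limit for dim loci only in HR-5 dry, so here too no fold is given. Ler wet arrays read 5.23, 4.48 and 4.14 and dry arrays 5.56, 4.79 and 4.69, against a median of 4.15 and a highest value of 4.73 in the other accessions, so that the groups overlapped. The difference was 0.52 ± 0.14 in wet and 0.77 ± 0.14 in dry plants (adjusted p = 0.0235 and 2.44e-04). The wet value includes Ler wet 3, here the lowest of the Ler wet arrays, and was not fitted without it. With wet and dry averaged, the difference was 0.76 without Ler wet 3 and 0.51 without Ler dry 1. ERL1 was higher by 0.15 ± 0.045, or 1.11-fold (adjusted p = 0.0181). Its dry arrays, 5.85, 5.75 and 5.71, lay above the highest dry array of the other accessions, 5.68, as at 0.487% of loci. The ERL1 call was kept without Ler wet 3 (0.16) but was lost without Ler dry 1 (0.13, adjusted p = 0.0884) or without Ler wet 2 (0.13, adjusted p = 0.0851), and with array medians centred (0.14, adjusted p = 0.0552). ER itself differed by 0.21 ± 0.17 (adjusted p = 0.518), with a 95% interval of -0.139 to 0.553. EPFL9, EPF1, EPF2, SDD1, SPCH and MUTE did not pass. With limma's array weights, whose estimation stopped before it converged, EPFL9 passed as lower in Ler (-0.65, adjusted p = 0.00235). These weights gave Ler wet 2 a value of 31.7, and with gene-by-gene weights, where it was 3.72, EPFL9 did not pass (-0.55, adjusted p = 0.0533).

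**Figure D3:**
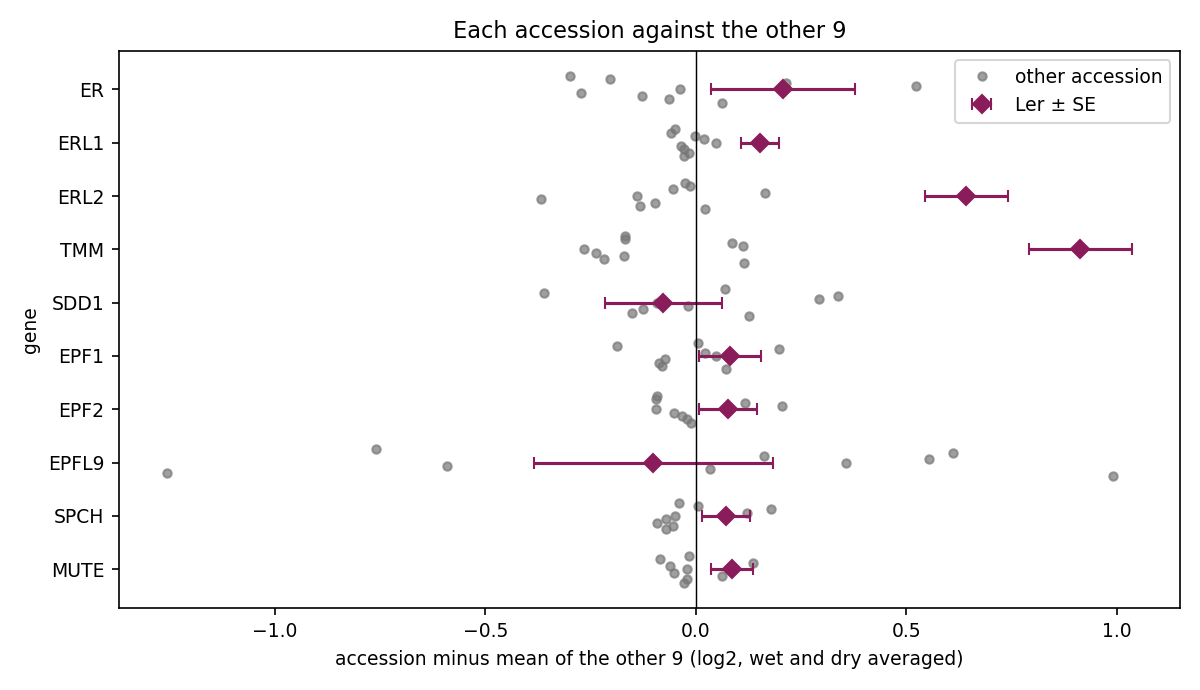
Each accession minus the mean of the other 9 (x axis, log2, wet and dry averaged) for the 10 genes (y axis), with Ler as diamonds ± SE and the other accessions as grey points. Ler stands to the right of all other accessions for TMM, ERL2 and ERL1, and the widest spread among accessions is that of EPFL9.

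Drying in Ler was compared with drying in the other 9 accessions as a difference of differences. None of the 10 genes passed in limma, with 0 at an unadjusted p under 0.05 and a lowest adjusted p of 0.935, where 0.00965% of loci passed. With the same array weights EPFL9 passed (1.04, adjusted p = 0.0447), and with gene-by-gene weights it did not (0.90, adjusted p = 0.39). For ER the difference was 0.42 (95% interval -0.269 to 1.12), which spans both a smaller and a larger response in Ler. For TMM it was -0.065 (-0.555 to 0.426). Without Ler wet 3 these differences were 0.152 for ER and 0.151 for TMM.

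Other genes of the pathway came from 2 lists, of which 33 of 41 loci were measured. With drying, 3 were higher, 7 lower and 23 did not pass, against 15.5% of all loci higher and 13.8% lower. With the replicate number as a block, COP1, a repressor of stomatal development, also passed as higher (0.22, adjusted p = 0.00223, against 0.0516 without the block), which made 4 higher and 7 lower. The highest rise was that of CRSP (ATSBT5.2), a subtilase that cleaves the EPF2 precursor, by 1.09 ± 0.15, or 2.13-fold (limma, adjusted p = 2.25e-07), in 10 of 10 accessions. SCRM2, a partner of SPCH and MUTE, rose by 0.30 ± 0.11, and BRXL2 by 0.10 ± 0.03. Among the 7 lower genes were BAK1, a co-receptor kinase (-0.26), and the kinase genes MKK7 (-0.15) and MPK6 (-0.14) of the cascade below the receptors. The others were FLP, which stops guard cell divisions (-0.30), CYCD5;1 (-0.15), AGL16 (-0.30) and AT5G10310, listed as the ligand gene EPFL1 (-0.19). BRXL2 and MKK7 lay under the limit for dim loci in all 20 groups. The interaction passed for none of the 33, and its lowest adjusted p values were those of SERK4 (0.435), AT5G10310 (0.475) and MKP1 (0.537).

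In Ler, 2 of 15 measured genes of the receptor and ligand list were higher and 1 lower, and of 18 regulators of the stomatal lineage 4 were higher and 0 lower, against 7.31% of all loci higher and 5.12% lower. Without Ler wet 3 the lineage count was 2 higher and 0 lower, since SCRM2 (0.42, adjusted p = 0.127) and BIN2 (0.25, adjusted p = 0.174) no longer passed, and the receptor and ligand list still gave 2 higher and 1 lower. The share of all loci without that array was not counted. ICE1, the partner of SPCH, MUTE and FAMA, was higher by 0.93 ± 0.12, or 1.9-fold (limma, adjusted p = 2.09e-07), with Ler arrays from 8.47 through 8.73 to 9.06 and other arrays from 6.95 through 7.89 to 8.74. SCRM2, its paralogue, was higher by 0.71 ± 0.18 and FLP by 0.45 ± 0.15. The phosphatase gene MKP1 was higher by 0.47 ± 0.11, and MKK5, a kinase gene of the cascade, was lower by -0.57 ± 0.11. SERK2 (0.65 ± 0.21) and BIN2 (0.32 ± 0.105) completed these counts and are named after their values were seen. Without Ler wet 3 the differences were 0.91 for ICE1, 0.68 for FLP, 0.52 for MKP1, -0.39 for MKK5 and 0.86 for SERK2, and all 5 passed. RBR1, a cell cycle regulator, differed among accessions (adjusted p = 0.0024) with its highest mean in HR-5, and CRSP did so with its highest in Bur-0 (adjusted p = 1.04e-04). Of the marker lists in Ler, guard cell markers gave 0 calls of 7, dividing-cell markers 0 of 8 and epidermal markers 0 of 6 in limma, with 0, 2 and 1 at an unadjusted p under 0.05. The dim dividing-cell markers CYCB1;1, AN3 and GRF5 are among these. Of 4 flower markers, 1 was higher, the floral organ gene AG by 0.16 ± 0.035 (limma, adjusted p = 9.18e-04). Leaving Ler wet 3 out gave 0.206 for AG, which passed too, and it lay under the limit for dim loci in all 20 groups. Mesophyll, root and clock markers gave 0 calls in Ler in limma, with 1, 0 and 0 at an unadjusted p under 0.05. Without Ler wet 3, the mesophyll marker CA1 passed as lower in Ler (-1.39, adjusted p = 0.0198).

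**Figure D4:**
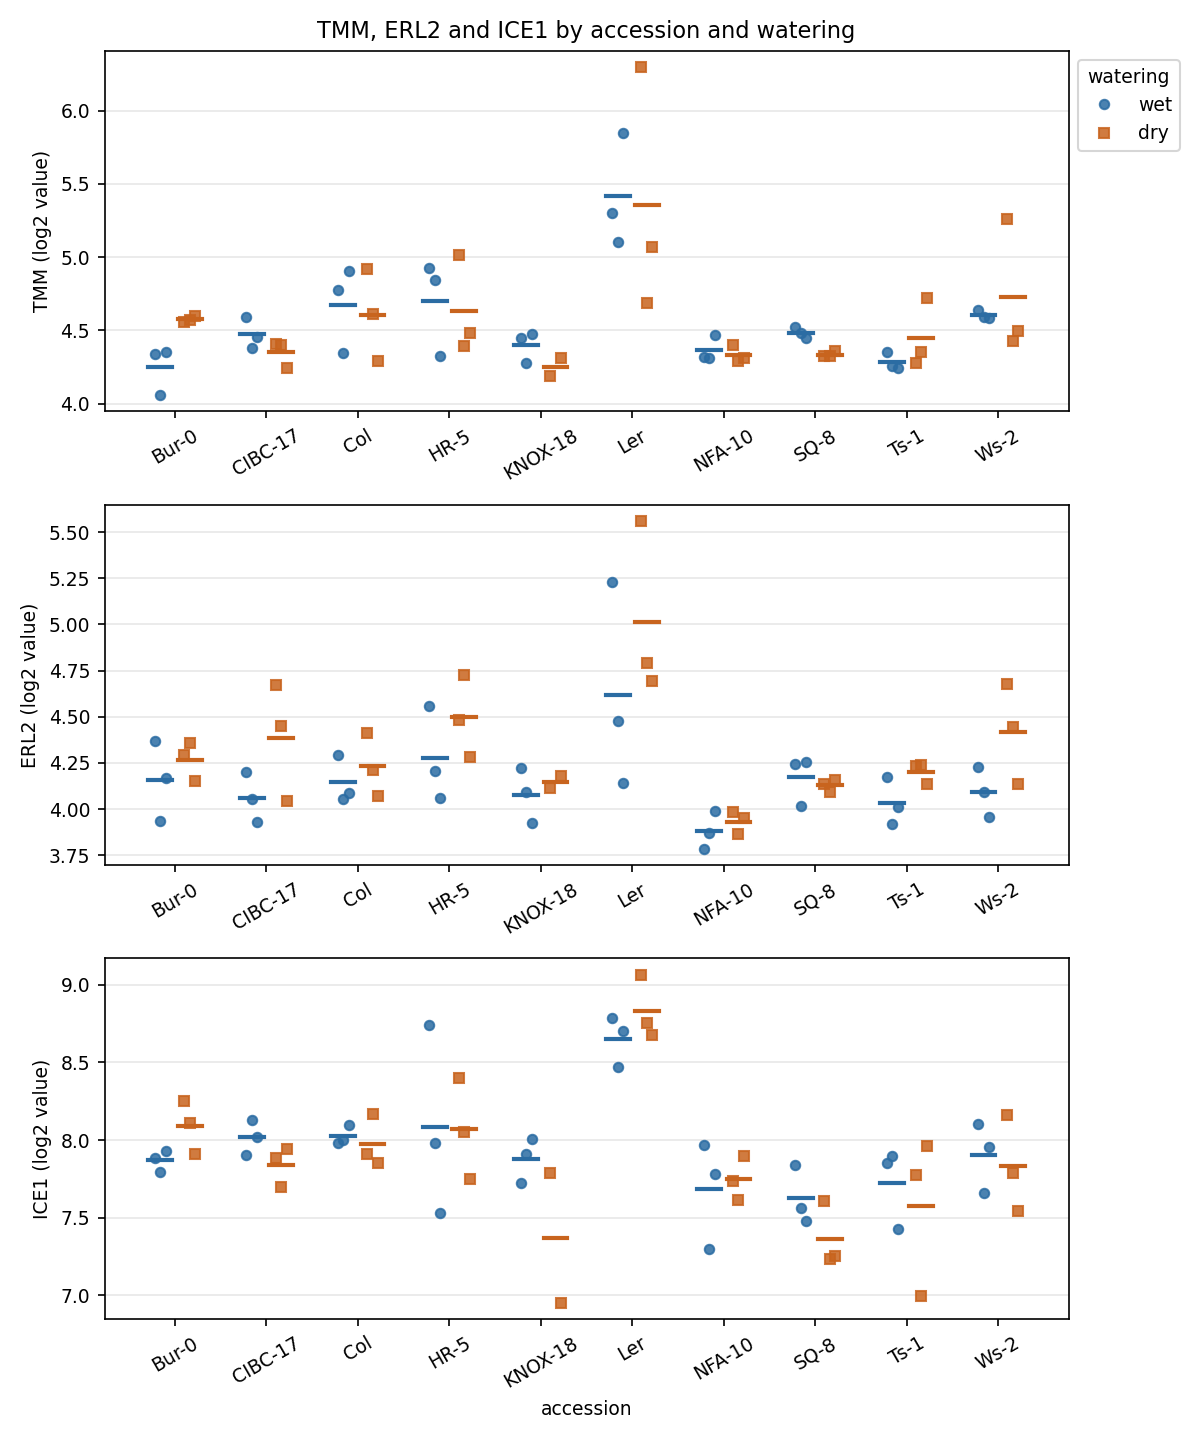
Log2 values of TMM, ERL2 and ICE1 on each array (upper, middle and lower panel) by accession (x axis), with wet arrays as circles, dry arrays as squares and lines for group means. The Ler means are the highest for each gene in both waterings, and Ler dry 1 has the highest single value of each.

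The loci whose pattern over the 20 group means was most like that of a member were found by Pearson's r, as a description. Nearest to ER were nuclear genes for plastid proteins, PTAC6 (r = 0.917), PORB (0.907), which codes for an enzyme of chlorophyll synthesis, and emb2726 (0.896). Nearest to EPFL9 were EMB3136 (0.907), the chaperonin gene CPN60B (0.899) and NDPK2 (0.881). ERL2 was nearest to SBT3.12 (0.885), VOZ1 (0.88) and CYP81F3 (0.873). TMM was nearest to AT1G12330 (0.908), ICE1 (0.882) and AT2G32910 (0.88). SPCH was nearest to AT2G36200 (0.837), the mitotic kinase gene AUR1 (0.826) and AT3G51720 (0.819). MUTE was nearest to SYP112 (0.821), the guard cell factor gene MYB60 (0.814) and UMAMIT33 (0.805). For the remaining members only the nearest locus is given. It was AT1G75090 for ERL1 (0.803), PDF1 for SDD1 (0.803), PIP2;5 for EPF1 (0.829) and AT5G25580 for EPF2 (0.815). EPF2, SPCH and MUTE lay under the limit for dim loci in all 20 groups. Group means share arrays, accessions and watering, so these values carry no test.

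Arrays of the same group also differed among themselves in an ordered way. Deviations from the group mean were correlated over the 59 arrays for 125 pairs of genes or marker means, chosen after the data were seen and given without a test, and the median r was 0.278. The strongest included the mean of the mesophyll markers with SDD1 (r = 0.766, rho = 0.767) and with EPFL9 (r = 0.765, rho = 0.569, and r = 0.647 without both arrays of NFA-10 wet that lay farthest out). Dividing-cell markers went with ER (r = 0.739), TMM (0.679) and EPF2 (0.654), and epidermal markers with ERL2 (0.721). Without both arrays that lay farthest out, these values were 0.682, 0.549, 0.638 and 0.703. Among members, SDD1 went with SPCH (0.678), TMM with EPF2 (0.669) and ER with ERL2 (0.668). Without the farthest arrays these fell to 0.505 (HR-5 wet 1 and 3), 0.582 (Ler dry 1 and 2) and 0.65 (HR-5 wet 1 and 3). SPCH and EPF2 lay under the limit for dim loci in all 20 groups. The arrays share hybridisation and RNA quality, which these values do not separate. The replicate number was not removed from the deviations either. In number 3 against number 1, ER, ERL2, 5 of 6 epidermal markers and 1 of 8 dividing-cell markers passed as lower in limma. Median epidermal means were 7.69, 7.35 and 7.17 in numbers 1, 2 and 3. The part of the number in these r values was not tested. HR-5 wet 1 had the highest SPCH (4.56), EPF2 (4.67) and SDD1 (5.96) of all arrays, and Ler dry 1 the highest TMM (6.30) and ERL2 (5.56). These were also the arrays with the highest mean of dividing-cell markers, 4.96 in Ler dry 1 and 4.92 in HR-5 wet 1. NFA-10 wet 1 had the lowest EPFL9, 4.68, and the lowest mesophyll mean, 10.13.

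**Figure D5:**
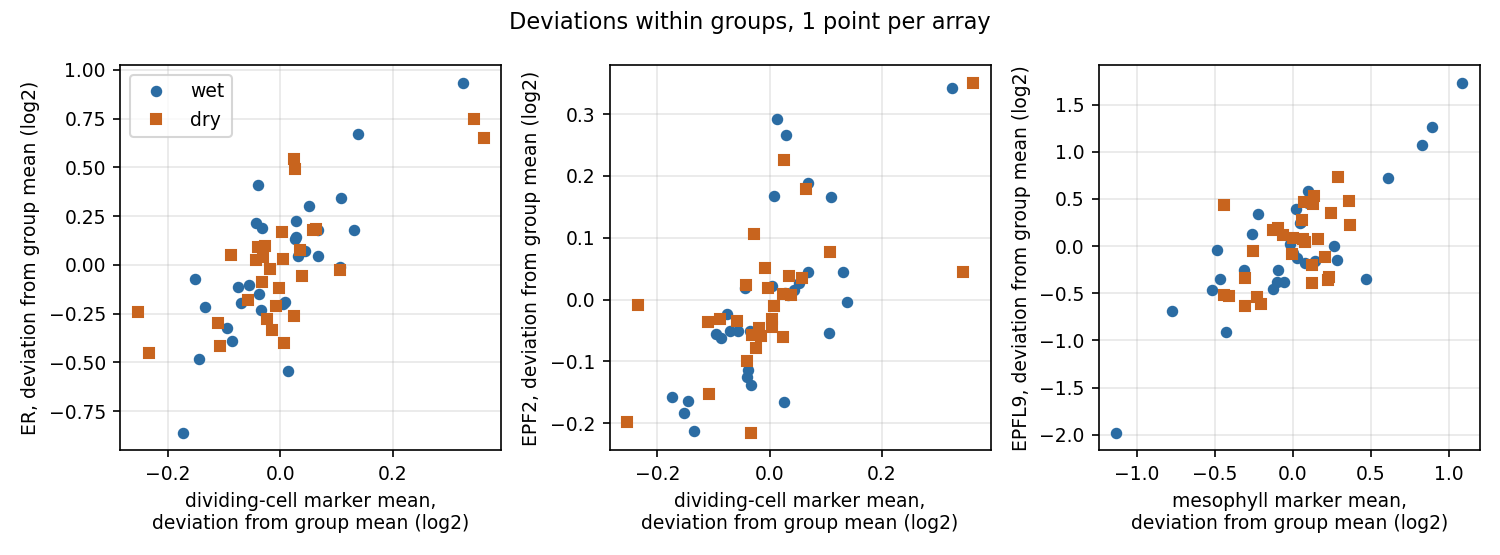
Deviation of each array from its group mean (log2) for ER and EPF2 against the mean of dividing-cell markers, and for EPFL9 against the mean of mesophyll markers, with wet arrays as circles and dry arrays as squares. These 3 pairs were picked from the stronger of the 125, with r of 0.739, 0.654 and 0.765, and all rise from lower left to upper right.

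Between arrays numbered 3 and those numbered 1, ER was lower by -0.31 ± 0.12 and ERL2 by -0.28 ± 0.06 (limma with the replicate number in the fit, adjusted p = 0.0373 and 2.37e-04). Within groups, deviations of ERL2 went with those of the morning clock genes (r = 0.644). No other member passed, while 17.2% of all loci were lower and 13.2% higher. The drying difference of ER was 0.62, 0.75 and 0.57 among arrays numbered 1, 2 and 3, and it passed in each.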

How the data were processed

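Biotin-labelled cRNA from rosette leaves was hybridised to arrays, per the labels. The deposited values are on a log2 scale, 1 per locus and array. MAS5 and RMA are named in the submitters' processing notes, with no version or role. The sources used here do not give the platform, the probes or the genome build, so no coordinates or sequences are printed. Arrays carry no read depth, and their number limits the precision. Values were used as deposited and fitted with limma 3.58.1 in R 4.3.3, with a mean for each of the 20 groups (lmFit, eBayes). P-values were adjusted by Benjamini-Hochberg over all 20728 loci in each contrast, and the threshold was 0.05. Errors are standard errors of the fit. The fit was tested on simulated data with 200 changed loci.

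Replicates are called biological in the series' design text. The genes and lists, and the check lists of tissue markers, were chosen with earlier results of these data known. All 10 members are described. From the pathway lists, the named genes are the 8 loci with the smallest adjusted p for drying, the 6 for accession differences and the 3 for the interaction, and the likeness rule took 3 loci per member. BRXL2, SERK2, BIN2 and COP1 were named after their values were seen. The locus lists for the label checks, the comparisons within groups, the replicate-number values, the replicate block over the gene lists, the list genes without Ler wet 3 and the accession calls without single arrays were chosen after the data were seen. Alternatives were other scalings, dim-locus filters, array weights, left-out arrays and accessions, and the replicate number.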

Additional observations from a re-analysis of the deposited data

How the results depend on the processing

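The drying calls of ER and EPFL9 and the Ler calls of TMM and ERL2 kept their direction and their side of the threshold under centred medians, quantile normalization, an intensity trend, both kinds of array weights, the replicate block and each array left out. The drying calls of ER and EPFL9 did so with dim loci left out as well. For TMM and ERL2 in Ler that filter is no check, since it keeps a locus by its highest group mean, which for ERL2 is that of Ler dry. The replicate block gave 0.632 for ER and 0.822 for EPFL9 and changed no drying call of the 10 genes. Over all loci it called 3714 higher and 3369 lower, against 3205 and 2864. Among the list genes it added 8 calls: COP1, LHY, GI, TOC1, KNOLLE and SCR, given above, the guard cell gene SLAC1 (0.093, adjusted p = 0.0438) and the epidermal gene GL2 (0.228, adjusted p = 0.0211). The labels do not say what the numbers mark. Deviations from the group mean correlated above 0.1 in 24 of 29 same-numbered wet and dry pairs (from -0.2 to 0.564). Of 58 arrays, 46 correlated best with their own number. With the number in the fit, 17.2% of all loci were lower and 13.2% higher in number 3 than in number 1. Arrays of a number thus share a factor, though 5 pairs do not show it. The fit without the block was kept, so its errors include that spread. Over all loci, 1016 drying calls changed with the block. The cause of the changes that follow was not tested. Number 1 alone called 2 members higher with drying and number 3 alone called 1, from 1 array a group. EPF1 passed in none of the numbers alone (0.196, 0.133 and 0.174, adjusted p = 0.114, 0.208 and 0.224), and ERL2 not in numbers 1 and 3 (0.125 and 0.127). Among accessions, 7 members passed with array weights and 6 with their gene-by-gene method, against 3. With array weights 1 member was lower in Ler and 1 had a higher drying response in Ler, EPFL9 in both. The default estimation of these weights, the one planned, stopped before converging; the gene-by-gene method was added after its results had been seen, and under it both EPFL9 calls are absent. Leaving out 1 array moved the accession count between 3 and 6. The shares of all loci called with array weights, with 1 number alone or with an array left out were not counted. These counts of members thus have no background beside them. ERL1 in Ler lost its call with medians centred (0.14, adjusted p = 0.0552).

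Signs turned for differences that had not passed with the values as deposited and equal weights. For drying, TMM read 0.0111 and 0.00946 with the default and gene-by-gene weights, 0.00919, 0.00271, 0.00268, 0.012, 0.0021 and 0.0118 without CIBC-17, Col, HR-5, KNOX-18, Ler and SQ-8, 0.0286 without Ler wet 3 and Col wet 3, and 0.144 with number 1 alone. MUTE read 0.00123 after quantile normalization, 0.0108 and 0.00747 with the weights, 0.0167, 0.00702 and 0.00407 without Col, KNOX-18 and Ws-2, 0.00293 without Ler wet 3 and Col wet 3, and 0.0313 and 0.00933 with numbers 1 and 3 alone. SDD1 read -0.00647 without Ts-1 and -0.0309 and -0.0632 with numbers 1 and 3 alone, and ERL1 -0.0412 with number 2 alone. In Ler, EPF2 read -0.0295 and -0.013 with the weights and MUTE -0.0014 with the default weights. The drying response in Ler without Ler wet 3 and Col wet 3 read 0.138 for TMM and 0.107 for SDD1. With each array left out in turn, the values for drying ran from -0.0516 to 0.0289 for TMM, from -0.0143 to 0.00721 for MUTE and from -0.0085 to 0.0678 for SDD1. With each array left out in turn, the values for the drying response in Ler ran from -0.0386 to 0.075 for SPCH, from -0.135 to 0.13 for SDD1, from -0.0197 to 0.214 for EPF1, from -0.0197 to 0.559 for ERL2, from -0.103 to 0.218 for EPF2, from -0.077 to 1.01 for EPFL9, from -0.0211 to 0.0866 for MUTE and from -0.537 to 0.268 for TMM. With each array left out in turn, the values for Ler against the other accessions ran from -0.0111 to 0.126 for EPF2 and from -0.417 to 0.128 for EPFL9. The test of values on a linear scale did not apply. Dim loci were at the bottom of the scale, which limits what can be seen of SPCH, EPF2 and MUTE. The same holds for ERL2 in 17 of 20 groups and for TMM in 9 of 20.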
